A study of Mus musculus with 8 samples.

Results

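The 5 mature arms mmu-miR-199a-5p, mmu-miR-199a-3p, mmu-miR-199b-5p, mmu-miR-214-3p and mmu-miR-214-5p, written below without the species prefix, were followed in embryonic mouse footpad skin, where they account for 5 of 1881 mouse miRNAs on the array and 5 of the 385 that were tested. They were chosen by name, as the arms of the miR-199 and miR-214 genes. They have 12 probes, of which the brightest of each member stands for it in the main values and 10 could be tested. The RNA came from C57BL6 embryos that were wild type (WT) or carried a conditional knockout (cKO) of Dicer, the enzyme that cuts precursor hairpins into mature miRNAs. Footpad skin was taken at embryonic stage E16.5 or a day later at E17.5, giving 4 groups of 2 arrays, and each array held RNA pooled from 3 to 5 embryos. The labels name neither the Cre driver nor the cells in which Dicer was lost, and the array carries no probe for Dicer mRNA. p-values therefore measure the spread between pools and not between embryos. All 4 groups were on 1 slide with each group in a column of its own, so slide column and group cannot be told apart.

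A miRNA hairpin has 2 arms, and the mature strand cut from either arm loads into an Argonaute protein and pairs with target mRNAs mainly through its seed, bases 2 to 8. In the mouse, miR-199a is encoded by Mir199a-1 and Mir199a-2, miR-199b by Mir199b and miR-214 by Mir214. Mir199a-2 and Mir214 lie in Dnm3os, a non-coding transcript read from the strand opposite to Dnm3, and they are made from that shared transcript. Mir199a-1 lies on the strand opposite to Dnm2 and Mir199b on the strand opposite to Dnm1, so each locus is antisense to a dynamin gene. These miRNAs are known as mesenchymal: they are abundant in fibroblasts and skeletal progenitors and scarce in keratinocytes. Whether the fibroblasts of the footpad are the source of the signal was not tested, since the RNA was from bulk footpad skin.

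The mature sequences are shown because the seed, in capitals, sets which targets a miRNA can pair with. Sequences are from RefSeq (GRCm38.p6), which gave 4 of the 5 members, and miR-199b-3p is printed for comparison.
miR-199a-5p: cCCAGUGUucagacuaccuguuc
miR-199a-3p: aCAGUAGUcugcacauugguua
miR-199b-3p: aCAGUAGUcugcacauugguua
miR-214-3p: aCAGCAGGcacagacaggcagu
miR-214-5p: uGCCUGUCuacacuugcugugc
The 4 members with a sequence carried 4 different seeds. miR-199a-3p and miR-199b-3p have the same sequence, so the signal called miR-199a-3p is the sum of transcripts from all 3 miR-199 genes. The seed of miR-214-3p is shared with miR-761, which had 4 probes and was detected on 0 of 8 arrays.

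The hairpins place both arms of each gene, and the capitals mark the stretches that the longest probe of each member pairs with.
Mir199a-2: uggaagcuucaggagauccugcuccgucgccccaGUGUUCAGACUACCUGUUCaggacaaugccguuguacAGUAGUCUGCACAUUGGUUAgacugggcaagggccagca
Mir199b: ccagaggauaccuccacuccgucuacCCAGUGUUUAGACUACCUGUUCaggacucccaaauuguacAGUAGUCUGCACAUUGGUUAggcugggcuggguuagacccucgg
Mir214: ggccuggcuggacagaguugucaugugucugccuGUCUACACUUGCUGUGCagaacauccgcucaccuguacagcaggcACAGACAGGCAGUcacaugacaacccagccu
The 3' arm stretch paired by the miR-199a-3p probe is the same in Mir199a-2 and Mir199b, and the 5' arm differs. The letters of the miR-199a-5p seed, ccagugu, also stand once in Mir199b, inside the stretch paired by the miR-199b-5p probe. For the members with a mature sequence, each probe lies against the 3' end of the mature strand, and for miR-199b-5p this was not checked. Whether the probes also bound unprocessed hairpin was not tested.

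The probes for the miR-199 5p arms show how the array separates the a and b forms, and the base at which they differ is in capitals.
miR-199a-5p probe: gaacaggtagtctGaacac
miR-199b-5p probe: gaacaggtagtctAaacactgg
Over the 19 bases that both probes share they differ by 1 substitution, G14A, counted from the 5' end of the probe with the miR-199a-5p base first. How much of each transcript bound to the other's probe was not measured, and whether the values of these 2 members are independent was not tested. In the array's design, given on mm9, the miR-199b-5p probe maps to chr2:32174007-32174027, the miR-199a-3p probe to chr2:32174047-32174065, the miR-214-3p probe to chr1:164153579-164153590 and the miR-214-5p probe to chr1:164153534-164153549. The design lists the miR-199a-5p probes as unmapped.

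All 5 members were detected on all 8 arrays. Scaled levels below are the log2 of the background-subtracted signal once each array had been scaled to its own 75th percentile, taken over 474 probes seen on every array. Between 279 and 384 miRNAs were detected per array, and replicate arrays correlated at r = 0.997 to 0.999 across miRNAs, which are not independent replicates. With 2 arrays per group, precision is limited by their number. The scale varied more across the 8 arrays than the scaled level of any member did. WT replicate 2 at E16.5 had a 75th percentile of 284 arbitrary units and WT replicate 1 one of 398, against 503 and 521 in WT at E17.5.

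The direction of the genotype difference depended on how the arrays were scaled, so no direction in absolute terms was established for any member. With the 75th-percentile scaling all 5 members were higher in cKO at both stages, by 1.23- to 1.33-fold averaged over stages. Without scaling 0 of the 5 passed the test, with errors of 0.13 to 0.17 on the log2 scale. When the arrays were set to the median level of a set of positive control probes, all 5 were lower in cKO. What these control probes respond to was not tested. The epithelial miRNAs listed below fell far more than any member changed. A gap of this kind between miRNAs on the same arrays is nearly fixed when a whole array is divided by 1 factor. Values for each member follow, first with the 75th-percentile scaling and then under the others.

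miR-199a-5p had scaled levels of 3.84 and 3.75 in WT and 4.11 and 4.08 in cKO at E16.5. At E17.5 they were 3.68 and 3.64 in WT and 4.14 and 4.22 in cKO. All 4 cKO arrays lay above all 4 WT arrays on this scale. The difference averaged over stages was 0.41 ± 0.030 on the log2 scale (SE, n = 4 arrays per genotype), a 1.33-fold difference with a limma adjusted p of 3.21e-04.

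miR-199a-3p, the other arm of the same hairpins and the brightest of the members, had scaled levels of 4.53 and 4.34 in WT and 4.77 and 4.72 in cKO at E16.5. At E17.5 they were 4.38 and 4.28 in WT and 4.82 and 4.82 in cKO. The genotypes did not overlap on this scale. The averaged difference was 0.40 ± 0.050 (SE, n = 4 arrays per genotype), with a limma adjusted p of 0.00188.

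miR-199b-5p, the 5' arm of the hairpin antisense to Dnm1, had scaled levels of 3.39 and 3.23 in WT and 3.60 and 3.59 in cKO at E16.5. At E17.5 the levels were 3.33 and 3.31 in WT and 3.74 and 3.79 in cKO. Again the genotypes did not overlap on this scale. The averaged difference was 0.36 ± 0.038 (SE, n = 4 arrays per genotype), with a limma adjusted p of 0.00102.

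miR-214-3p, cut from the Dnm3os transcript together with miR-199a, had scaled levels of 2.02 and 1.90 in WT and 2.20 and 2.12 in cKO at E16.5. At E17.5 they were 1.69 and 1.66 in WT and 2.07 and 2.09 in cKO. The lowest cKO array exceeded the highest WT array by 0.050. The averaged difference, 0.30 ± 0.034 (SE, n = 4 arrays per genotype, limma adjusted p = 0.00132), was the smallest of the 5.

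miR-214-5p, the other arm of the miR-214 hairpin and the dimmest member, had scaled levels of −1.14 and −1.36 in WT and −0.93 and −0.93 in cKO at E16.5. At E17.5 they were −1.42 and −1.61 in WT and −1.08 and −1.07 in cKO. The lowest cKO array exceeded the highest WT array by 0.055. The averaged difference was 0.38 ± 0.066 (SE, n = 4 arrays per genotype), with a limma adjusted p of 0.00587 and the widest error of the 5.

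**Figure D1:**
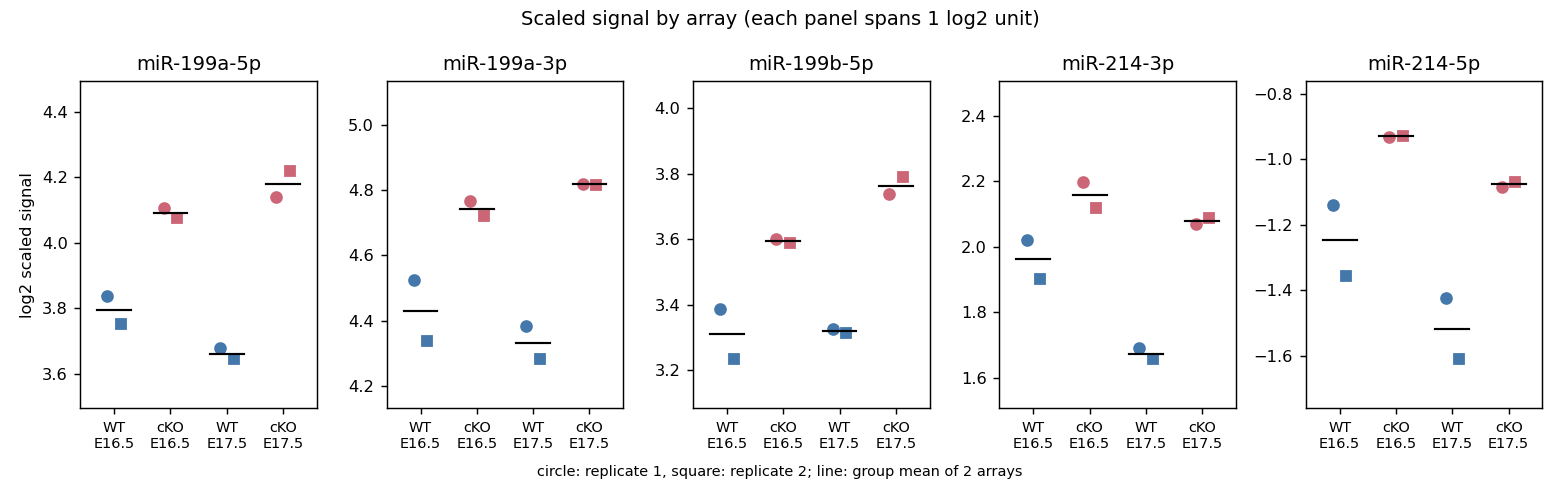
Log2 scaled signal of each member (vertical axis, log2 units, 75th-percentile scaling) on the 8 arrays, grouped by genotype and stage, with replicate 1 as a circle, replicate 2 as a square and the mean of 2 arrays as a line. On this scale the 4 cKO arrays lie above the 4 WT arrays in each panel, with the narrowest margins for miR-214-3p (0.050) and miR-214-5p (0.055).

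Counted together, 5 of 5 members were higher in cKO in the contrast averaged over stages, where 45.7% of all tested miRNAs were. The shared direction of the 5 changes does not set them apart on its own. The median of all tested miRNAs was itself 0.17 higher in cKO on this scale. Relative to that median the members stood 0.14 to 0.24 higher, at percentiles 74.0 to 93.0 of the 385 changes. For 25.5% of the tested miRNAs all 4 cKO arrays lay above all 4 WT arrays, as they did for the 5 members.

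By stage, the differences at E16.5 were 0.30 for miR-199a-5p, 0.31 for miR-199a-3p, 0.28 for miR-199b-5p, 0.20 for miR-214-3p and 0.32 for miR-214-5p. All 5 passed the limma test with adjusted p from 0.00502 to 0.0415, against 35.8% of all tested miRNAs that were higher. The count rested on single arrays: without cKO replicate 1 at E16.5, or in a fit of the 2 E16.5 groups alone, only miR-199a-5p passed. It was 3 of 5 without WT replicate 2 or cKO replicate 2 at E16.5, without either cKO array at E17.5, and without both E16.5 replicate 2 arrays.

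Set against the median over all tested miRNAs, the E16.5 differences were 0.0086 for miR-214-3p and 0.096 to 0.13 for the other 4, at percentiles 50.6 to 70.9. miR-214-3p thus lay at the middle of the array at this stage.

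At E17.5 the differences were 0.52 for miR-199a-5p, 0.48 for miR-199a-3p, 0.44 for miR-199b-5p, 0.41 for miR-214-3p and 0.44 for miR-214-5p. All 5 passed, with limma adjusted p from 7.92e-04 to 0.0149, where 35.8% of all tested miRNAs were higher. Set against the median over all tested miRNAs they were 0.28 to 0.39 higher, at percentiles 84.7 to 95.8. Leaving out any 1 array kept 4 or 5 calls, and the member lost was miR-214-5p. Scaling to the median also lost miR-214-5p at E17.5 (limma adjusted p = 0.0547) and kept the other 4.

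The genotype difference was numerically larger at E17.5 than at E16.5 for each member, by 0.12 to 0.22, but 0 of 5 passed the limma test of the difference between stages, where 1.56% of all tested miRNAs did. The 2 members under 0.05 before adjustment were miR-199a-5p (limma adjusted p = 0.106) and miR-214-3p (limma adjusted p = 0.130). A difference between the stages was therefore not shown.

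Between stages within a genotype, 1 member passed the test. miR-214-3p fell by 0.29 ± 0.048 (SE) in WT from E16.5 to E17.5, with a limma adjusted p of 0.0249, where 10.6% of all tested miRNAs were lower. The other 4 ranged from −0.27 (miR-214-5p) to 0.0092 (miR-199b-5p) in WT and did not pass. Among them miR-199a-5p (−0.13, limma adjusted p = 0.0923) and miR-214-5p (limma adjusted p = 0.109) were under 0.05 before adjustment. The call of miR-214-3p also depended on the scaling. Quantile normalisation kept it (−0.24, limma adjusted p = 0.0182), and the median kept the direction but not the call (−0.18, limma adjusted p = 0.0919). Without scaling miR-214-3p was 0.32 higher at E17.5 (adjusted p = 0.177), and with the median level of the control probes 0.046 higher (adjusted p = 0.521). The count was 0 of 5 without WT replicate 1 or 2 or cKO replicate 1 or 2 at E17.5, each left out in turn, and in a fit of the 2 WT groups alone. In cKO, 0 of 5 passed the limma test, against 35.3% of all tested miRNAs in either direction, and 1 member, miR-199b-5p, was under 0.05 before adjustment (0.17 ± 0.054, SE, adjusted p = 0.0617). In the fit of single probes 2 second probes passed in cKO, in opposite directions: the 21-base probe of miR-199b-5p was higher at E17.5 (0.27, limma adjusted p = 0.0457) and the 16-base probe of miR-214-5p lower (−0.32, limma adjusted p = 0.0269).

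The order of the 4 groups on the 75th-percentile scale was the same for the 3 members miR-199a-5p, miR-199a-3p and miR-199b-5p at the top, where cKO at E17.5 came first and cKO at E16.5 second, and these neighbours did not pass the test. For miR-214-3p and miR-214-5p cKO at E16.5 came first and cKO at E17.5 second, again without passing. The WT groups were lowest for all 5, and among WT neighbours only those of miR-214-3p passed.

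Before any scaling the picture was different. The signal of miR-199a-5p was 5685 and 3833 arbitrary units in WT and 4953 and 4861 in cKO at E16.5, and 6433 and 6520 in WT and 7193 and 6983 in cKO at E17.5. That of miR-214-3p was 1614 and 1063 in WT and 1319 and 1252 in cKO at E16.5, and 1623 and 1644 in WT and 1713 and 1594 in cKO at E17.5. At E16.5 the 2 cKO arrays fell between the 2 WT arrays for both, and the genotypes overlapped for all 5 members.

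**Figure D2:**
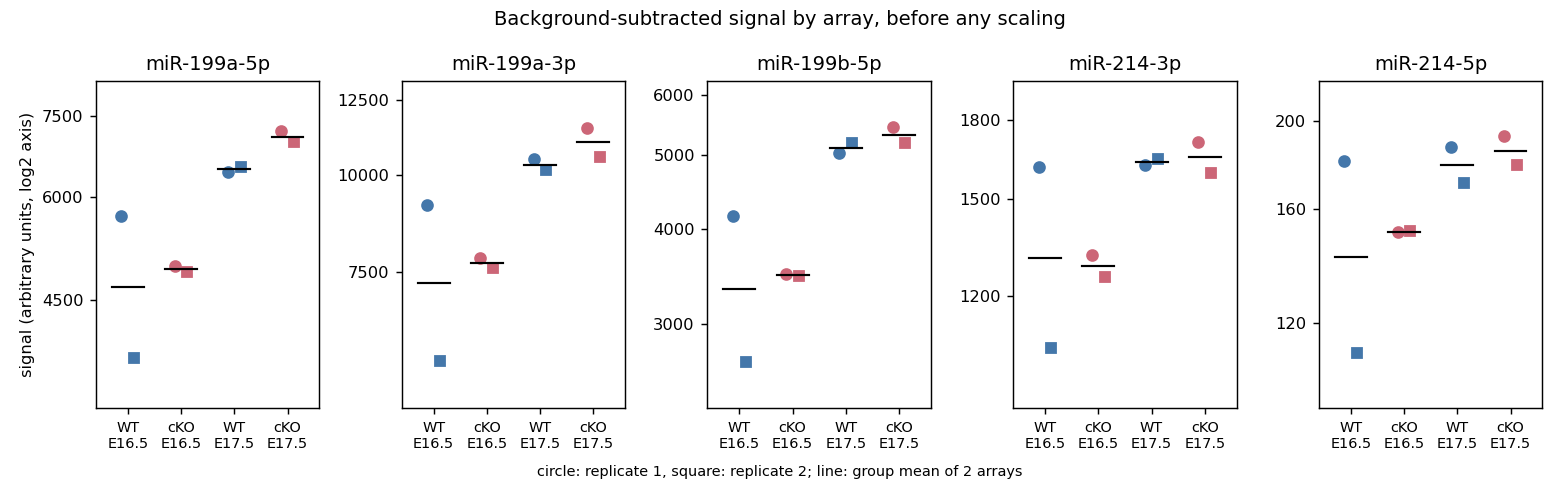
Background-subtracted signal of each member (vertical axis, arbitrary units on a log axis) on the 8 arrays before scaling, with replicate 1 as a circle, replicate 2 as a square and the geometric mean of 2 arrays as a line. At E16.5 both cKO arrays lie between the 2 WT arrays in each panel, for example 4953 and 4861 against 5685 and 3833 for miR-199a-5p.

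7 scalings were compared for the averaged contrast. The 75th percentile of detected probes (0.30 to 0.41) and the median of detected probes (0.23 to 0.33) each called 5 of 5 members higher, and with the median 33.5% of all tested miRNAs were. Quantile normalisation called 3 members higher, miR-199b-5p, miR-214-3p and miR-214-5p, where 39.2% of all tested miRNAs were. It set miR-199a-3p to a difference of 0 by construction, since that member kept its rank on every array.

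The 75th percentile over all probes (0.021 to 0.13) and no scaling (−0.0056 to 0.10) called 0 of 5. Scaling to the median level of 19 positive control probes gave −0.25 to −0.14 and called 5 of 5 lower, from miR-214-3p (−0.25, adjusted p = 0.00144) to miR-199a-5p (−0.14, adjusted p = 0.0254), by limma, where 70.9% of all tested miRNAs were lower. On that scale the median of all tested miRNAs was −0.31.

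A second version took 20 control probes, kept by another rule, and used their median deviation from their own means. It gave −0.074 to 0.033 and called 0 of 5. It was defined after the lower calls of the control-level scaling had been seen, so its lack of calls carries no more weight than theirs. In share of calls, 75.9% of the called miRNAs were higher in cKO with the 75th percentile of detected probes, 69.3% with quantile and 67.2% with the median, against 10.2% with the percentile over all probes, 10% without scaling, 4.24% with the control deviation and 1.44% with the control level.

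**Figure D3:**
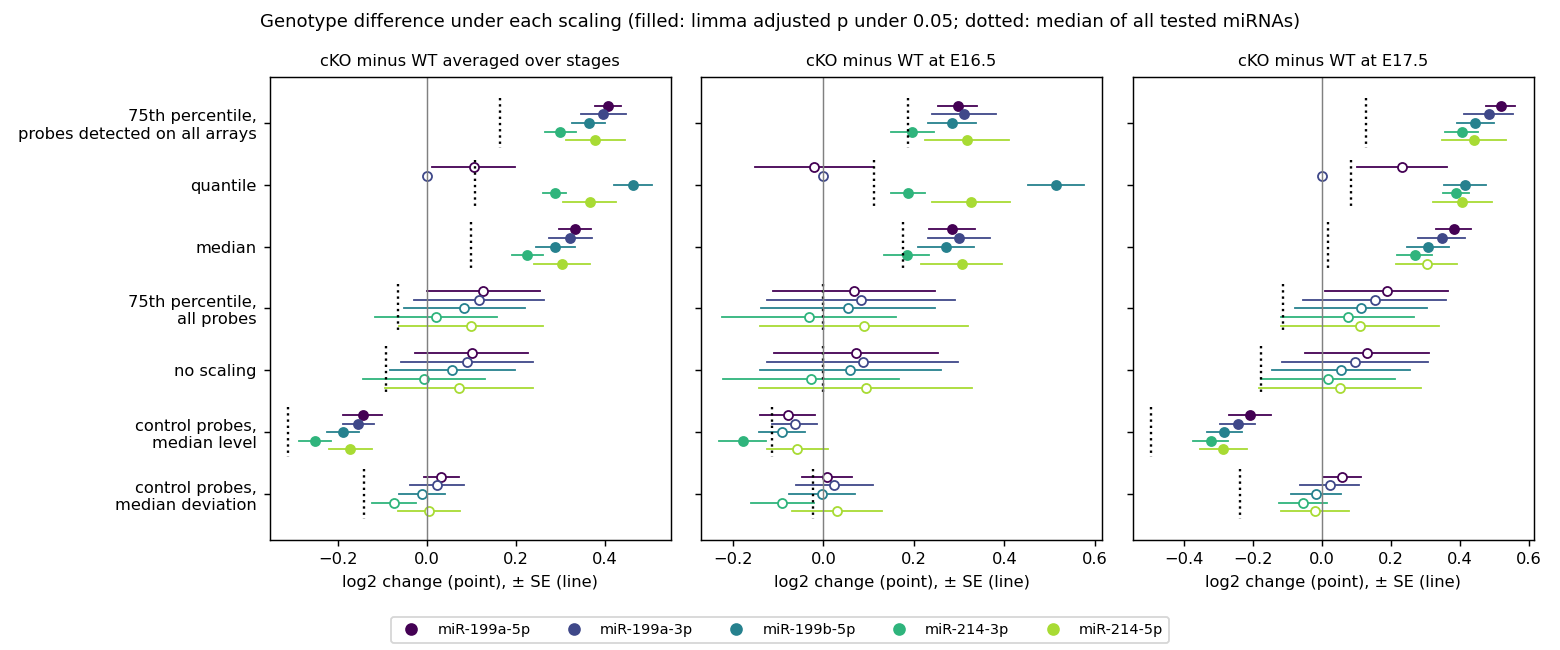
Log2 difference between cKO and WT (horizontal axis) for each member under 7 ways of scaling the arrays (rows), averaged over stages and at each stage, as a point with its standard error; filled points passed limma at an adjusted p of 0.05 and the dotted line is the median of all tested miRNAs. The same 5 members are called higher in the top row, not called without scaling and called lower with the control-level scaling of the averaged contrast, and the dotted line shifts with them, since all scalings here but quantile move all miRNAs of an array alike.

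Set against the median over all tested miRNAs, the members lay above it in the averaged contrast (0.062 to 0.24) and at E17.5 (0.17 to 0.39) under the 6 scalings other than quantile. These 6 divide each array by 1 factor, so they are nearly 1 result and do not repeat each other. Dim values held at the floor do not shift, so the relative values still differed. For miR-214-3p averaged over stages they were 0.14 with the 75th percentile of detected probes and 0.062 with the control level. At E16.5 the relative values ran from −0.068 to 0.13, with miR-214-3p below the median in 4 of these 6. Under quantile normalisation miR-199a-3p was 0.11 below the median in the averaged contrast and miR-199a-5p 0.0021 below it.

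No unequal genotype difference between members was detected. A difference of 2 members taken within an array does not depend on dividing that array by a factor, and 0 of 10 pairs showed an unequal genotype difference (two-sided exact permutation test of 4 against 4 arrays, smallest p = 0.171, adjusted p = 0.857, smallest possible p = 0.0286). The widest was between miR-199a-5p and miR-214-3p, by 0.11. Permuted within stage, the exact test gave its smallest possible p of 0.0556 for 3 pairs, miR-214-3p against each of the 3 miR-199 arms, and an adjusted p of 0.185. Within stage, then, no pair could have passed. In the test of 4 against 4 arrays a single pair at the smallest possible p would not have passed after adjustment over the 10 pairs either. Several pairs would have had to reach that p together. The tests therefore do not show that the members changed by equal amounts. Between stages in WT the members were further apart, with miR-214-3p at −0.29 and miR-199b-5p at 0.0092, and this gap was not tested.

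Averaged over stages, the second probe of each member gave a difference near that of the first, but single stages differed more. In a fit across 719 probes, the shorter probe of miR-199a-5p gave 0.44 against 0.41, that of miR-199a-3p 0.42 against 0.40, that of miR-199b-5p 0.35 against 0.36 and that of miR-214-3p 0.34 against 0.30 in the averaged contrast. miR-214-5p had 4 probes, of which the 14-base and 15-base ones were detected on 0 arrays, the 16-base one on 6 and the 17-base one on 8. The 16-base probe gave 0.33 averaged over stages, but it ordered the stages the other way, with 0.46 at E16.5 and 0.20 at E17.5 (adjusted p = 0.0673 by limma), where the 17-base probe gave 0.32 and 0.44. The 21-base probe of miR-199b-5p was at 0.22 at E16.5 and did not pass (limma adjusted p = 0.0560).

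Skin epithelium miRNAs gave the largest contrast to the members. All 10 of 10 listed, with miR-200c-3p at −3.36, the keratinocyte miRNA miR-203-3p at −3.19 and miR-205-5p at −3.12, fell in the averaged contrast (median −2.56), where 14.5% of all tested miRNAs were lower. The members' median lay 2.94 above theirs, and dividing an array by a factor hardly moves this gap. On this list miR-183-5p was detected on 4 arrays and miR-200c-3p and miR-429-3p on 7. How far the floor limited their falls was not tested. In bulk skin, fewer cells of a type and less RNA per cell cannot be told apart. The summed scaled level of the 10 was 4.77 to 4.79 in WT and 2.03 to 2.11 in cKO at E16.5, and 4.86 to 5.00 and 1.51 to 1.91 at E17.5. Its part in the members' difference was not tested.

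Other mesenchymal miRNAs did not all behave as the members did. Of 9 listed for dermal mesenchyme 7 were tested. On the 75th-percentile scale 4 of the 7 were higher in cKO, where 45.7% of all tested miRNAs were. Among the 4 were miR-145a-5p (0.34), abundant in smooth muscle, and miR-127-3p (0.31), from an imprinted cluster. miR-143-3p, made from the same transcript as miR-145a, was at 0.012 averaged over stages and did not pass, but it was called in opposite directions at the stages, lower in cKO at E16.5 (−0.18, limma adjusted p = 0.0462) and higher at E17.5 (0.21, limma adjusted p = 0.0328). The test of the difference between these did not pass (limma adjusted p = 0.0701). The list's median was 0.16, about the median of all tested miRNAs (0.17), while the members' median was 0.38. On the list, miR-29a-3p, miR-29b-3p and miR-29c-3p were detected on 6, 5 and 6 arrays, against 8 for each member. How far the floor lowered the differences of these dim miRNAs was not tested. The list's calls also changed with the scaling. Quantile normalisation called 2 of the 7 higher and 1 lower, and the median 3 higher, where 39.2% and 33.5% of all tested miRNAs were higher. No scaling called 0 higher and 1 lower, the percentile over all probes 0 in either direction, the control level 6 lower and the control deviation 4 lower. With the control level 70.9% of all tested miRNAs were lower.

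Lists for other cell types gave values on either side of the members. Skeletal muscle and cartilage are not cells of the skin, and whether deeper tissue was in the samples was not tested. Their counts below stand against 45.7% of all tested miRNAs that were higher on the 75th-percentile scale. All 5 skeletal muscle miRNAs were higher on the 75th-percentile scale (median 0.32), led by miR-499-5p (0.39) and miR-1a-3p (0.36), and both arms of the endothelial miR-126a were, by 0.55 and 0.34. In cartilage 1 of 4 was higher (miR-455-3p, 0.38; miR-140-3p was at 0.17 and did not pass), in blood and immune cells 4 of 7, led by miR-146a-5p (0.37) and miR-486a-5p (0.31), with the red-cell miR-144-3p at −0.22 and not passing, and in nerve and glia 2 of 3 tested (miR-128-3p, 0.35; miR-218-5p, 0.21). The neuronal miR-124-3p and miR-9-5p were detected on 0 arrays. Quantile normalisation and the median also called the 5 muscle and 2 endothelial miRNAs higher, where 39.2% and 33.5% of all tested miRNAs were. With no scaling 0 of the miRNAs on these 5 lists were higher. With the control level, 4 of 5 in muscle, 1 of 2 in endothelium, 1 of 4 in cartilage, 7 of 7 in blood and immune cells and 3 of 3 in nerve and glia were lower. On that scale 70.9% of all tested miRNAs were lower.

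**Figure D4:**
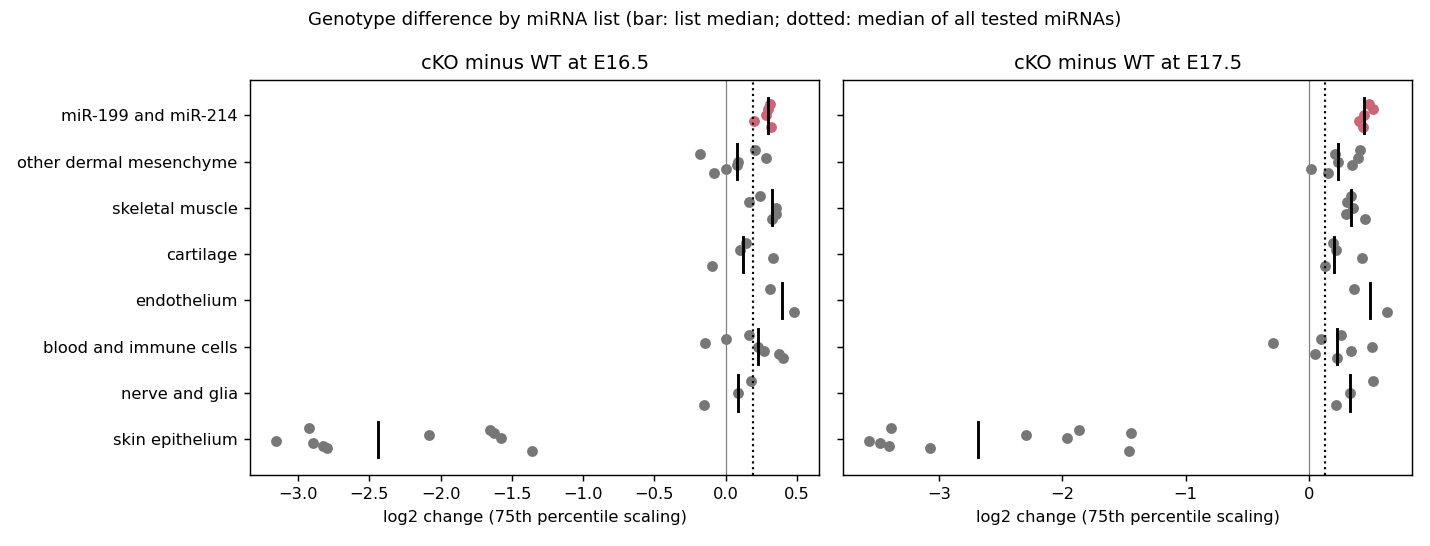
Log2 difference between cKO and WT (horizontal axis, 75th-percentile scaling) at E16.5 and E17.5 for the 5 members and for lists of miRNAs of other cell types, 1 point per tested miRNA, with each list's median as a bar and the median of all tested miRNAs as a dotted line. The skin epithelium list lies apart with medians of −2.44 and −2.68, and the medians of the other lists lie near that of the members or closer to 0.

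Among 256 other miRNAs detected on all 8 arrays, the 5 whose scaled profiles were most like the members' mean profile were miR-3069-3p (r = 0.997 over 8 arrays), miR-125b-5p (r = 0.993), miR-154-3p (r = 0.984), miR-409-3p (r = 0.980) and miR-677-3p (r = 0.974). These r values are descriptions over arrays that share their scaling and fall into 2 genotypes. miR-154-3p and miR-409-3p come from an imprinted miRNA cluster expressed in mesenchyme. Each member correlated with the mean of the other 4 at 0.874 (miR-199b-5p) to 0.981 (miR-199a-3p).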

How the data were processed

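Footpad skin RNA was hybridised to 8 one-colour Agilent arrays. The authors read the images in Agilent Feature Extraction (version 11.5.1.1), per the file headers, and the deposited scanner files give background-subtracted intensity in arbitrary linear units, unscaled between arrays. The deposited value table held the same intensity (within 0.02 in 100% of spots above 0) and was an alternative. Outlier spots (2.84% to 6.02% per array) were dropped, the remaining spots of each probe were averaged, and 0 spots were saturated. A probe was detected where over 50% of its spots were well above background, and a miRNA where any of its probes was. Arrays were divided by their 75th percentile over 474 probes, values were floored at −4.24 (log2), and each miRNA took its brightest probe. Testing covered 385 miRNAs, those seen on the 2 arrays of some group, with limma 3.58.1 in R 4.3.3 (4 group means, trend, Benjamini-Hochberg at 0.05 within each of 6 contrasts; 4 residual degrees of freedom), after a check on simulated data. Figures used matplotlib 3.10.9.

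The members, the lists and the naming rule (the 5 members, the 5 most alike profiles, up to 2 miRNAs per list, and miR-200c-3p and miR-205-5p) were chosen with earlier results of these data known. Control probes were first used through their median level. A version based on deviations was added after the level version had been seen to turn the members' direction, and both are reported. The level version chose its positive control probes by name and signal, and the deviation version by detection above background on every array. Detection by any probe was likewise settled during the analysis.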

Additional observations from a re-analysis of the deposited data

How the results depend on the processing

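In the averaged contrast, all 95 member values from alternatives other than the scaling kept their direction and call (0.18 to 0.44). At E16.5, 24 of 105 lost the call, and at E17.5, 4 of 100. With 1 array left out, the count of members called was 5 in the averaged contrast, 1 to 5 at E16.5, 4 to 5 at E17.5, 0 to 1 in WT and 0 to 1 in cKO between stages, and 0 for the difference between stages; an array left alone in its group was taken to vary like the others. The E16.5 count was 3 with outlier spots kept and without both E16.5 replicate 2 arrays, and 1 in a fit of the 2 groups alone. Between stages in WT it was 0 in the fit of 2 groups and 2 with normexp background or with miRNAs detected on all 8 arrays. In cKO it was 1 in the fit of 2 groups and without both E16.5 replicate 2 arrays, and 2 with normexp or the mean over all probes. miR-199b-5p turned to −0.0080 in WT with outlier spots kept and to −0.068 without both E16.5 replicate 2 arrays; with 1 array left out it ranged from −0.068 to 0.086. miR-214-5p turned in the difference between stages, to −0.035 with the mean over all probes and −0.26 with its 16-base probe. Without a filter on dim miRNAs the fit ran over the 386 above the floor on some array, since 1495 of 1881 lay at the floor on all.

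Deviations of same-numbered arrays correlated at −0.19 to 0.33 between groups, which does not settle whether the replicate numbers pair the arrays. Both E16.5 replicate 2 arrays had fewer detected miRNAs (279 in WT and 281 in cKO) than the replicate 1 arrays (367 and 365). Replicate 2 also had the larger share of outlier spots in each group. The replicate block changed no count (5, 5 and 5 for the genotype contrasts, 0 for the difference between stages, 1 in WT and 0 in cKO). Crossing the numbers at E16.5, an alternative chosen after seeing the data, gave 5.

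The scaling decided the direction. Quantile normalisation gave 3 members in each genotype contrast, where 151 (averaged), 119 (E16.5) and 125 (E17.5) of the 385 tested miRNAs were higher. It turned miR-199a-5p at E16.5 (−0.021) and miR-199b-5p in the difference between stages (−0.10). The median gave 5, 5 and 4 in the averaged, E16.5 and E17.5 contrasts, where 129, 116 and 71 of the 385 were higher. It gave 0 in WT between stages and turned miR-199a-3p there (0.014) and miR-214-5p in the difference (−0.0012). The 75th percentile over all probes gave 0 in the genotype contrasts and in WT. It turned miR-214-3p at E16.5 (−0.032) and, between stages, miR-214-3p (0.087), miR-214-5p (0.11), miR-199a-5p (0.24) and miR-199a-3p (0.28) in WT and miR-214-3p (0.19) and miR-214-5p (0.13) in cKO. No scaling gave 0 in the genotype contrasts and 1 higher in WT, where 181 of the 385 were higher. It turned miR-214-3p in the averaged contrast (−0.0056) and at E16.5 (−0.028), and miR-199b-5p (−0.0038) and miR-214-5p (−0.041) in the difference. Between stages it turned miR-214-3p (0.32), miR-214-5p (0.34), miR-199a-5p (0.47) and miR-199a-3p (0.51) in WT and miR-214-3p (0.36) and miR-214-5p (0.30) in cKO.

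The median level of the control probes called 5 members lower in the averaged contrast, 1 at E16.5 and 5 at E17.5. Of the 385 tested miRNAs it called 273, 119 and 311 lower in these contrasts. In WT between stages it called 3 members higher, and 158 of the 385. For miR-199a-5p, miR-199a-3p, miR-199b-5p, miR-214-3p and miR-214-5p in that order, it gave −0.14, −0.15, −0.19, −0.25 and −0.17 averaged. It gave −0.079, −0.064, −0.091, −0.18 and −0.057 at E16.5, and −0.21, −0.24, −0.28, −0.32 and −0.29 at E17.5. In the difference it gave −0.13, −0.18, −0.19, −0.14 and −0.23. In WT it gave 0.046 for miR-214-3p, 0.064 for miR-214-5p, 0.20 for miR-199a-5p and 0.24 for miR-199a-3p. The deviation version, defined after these values had been seen, gave 0 in the genotype contrasts and in WT. It turned miR-199b-5p (−0.010) and miR-214-3p (−0.074) averaged, the same 2 at E16.5 (−0.0035 and −0.091), and miR-199b-5p (−0.017), miR-214-3p (−0.056) and miR-214-5p (−0.020) at E17.5. In the difference it turned miR-199a-3p (−0.0014), miR-199b-5p (−0.014) and miR-214-5p (−0.051), and in WT miR-199a-5p (0.11) and miR-199a-3p (0.14). Which scaling fits these RNA samples was not tested. Signal over background limited miR-214-5p, whose shorter probes were near background.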
